A study of Mus musculus with 21 samples.

Results

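Dorsal skin of UV-irradiated hairless mice was compared between week 6 and week 4 of repeated exposure. All arrays that the labels give as 6 week or 4 week irradiated skin were taken, which made 6 of the 21 arrays of the series, 3 of UV week 6 (arrays 441, 443 and 445) and 3 of UV week 4 (arrays 331, 333 and 334). The mice were female albino hairless mice of the Hos:HR-1 strain, 6 weeks old on arrival, and both groups carried the same strain background, the same lamp and 3 exposures a week. By the methods, the exposure was raised by 1 MED each week (the minimal erythema dose, 100 mJ per square centimetre) up to 4 MED and then held. The results text of the paper gives the dose as steady over weeks 6 to 8. Whether 4 MED was already reached at week 4, and the dose per exposure was thus the same in both groups, is not settled. UV week 6 skin had received more accumulated exposure and was older than UV week 4 skin. Non-irradiated skin was measured at weeks 1 and 8, and non-irradiated skin of weeks 4 and 6 was not analysed here. Accumulated exposure, age and any difference in dose per exposure therefore cannot be told apart within this step. Total RNA of whole skin was hybridised to Affymetrix Mouse Genome arrays. Where a value is given for each array below, those of UV week 6 stand in the order 441, 443 and 445 and those of UV week 4 in the order 331, 333 and 334. The time between the last exposure and the sampling is not given in the sources used here.

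Epidermis renews itself from basal keratinocytes, and ultraviolet light thickens it, inflames it and thins out its Langerhans cells, the resident dendritic cells that carry antigen on MHC class II molecules to lymph nodes. Growth signals, stress and radiation all act through immediate early genes, whose transcription factors (the Fos, Jun and Egr families) appear within minutes of a stimulus and fade soon after. Hair follicles cycle between growth, regression and rest, and the keratins of the hair shaft and of the inner root sheath around it are made only in the growth phase.

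Of 40540 probe sets tested, 1 was called lower in UV week 6 skin and 0 higher, where a call needs 2-fold and adjusted p at or under 0.05 (0.00247% and 0% of those tested). This was Cd207. Without the minimum fold, 2 probe sets passed, both lower (0.00493%), and the second was Btg2. An unadjusted p under 0.05 was reached by 2835 probe sets above UV week 4 (6.99%) and 2220 below it (5.48%), and 123 (0.303%) and 209 (0.516%) probe sets were at least 2-fold higher and lower without regard to the test. The neighbouring steps gave few calls as well. UV week 2 against UV week 1 gave 3 higher (0.0074%) and 1 lower (0.00247%), UV week 4 against UV week 2 gave 0 (1278 higher, 3.15%, and 1122 lower, 2.77%, by unadjusted p under 0.05), and UV week 8 against UV week 6 gave 0 (915 higher, 2.26%, and 877 lower, 2.16%, at that p). When the beta-actin 3'/5' ratio (a measure of RNA quality) was added to the model, limma gave 2 higher (0.00493%) and 11 lower (0.0271%) in UV week 6 against UV week 4. Apart from Cd207 and Btg2, no gene described below passed the adjusted test in this step without that covariate, and the values are given as measurements.

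**Figure D1:**
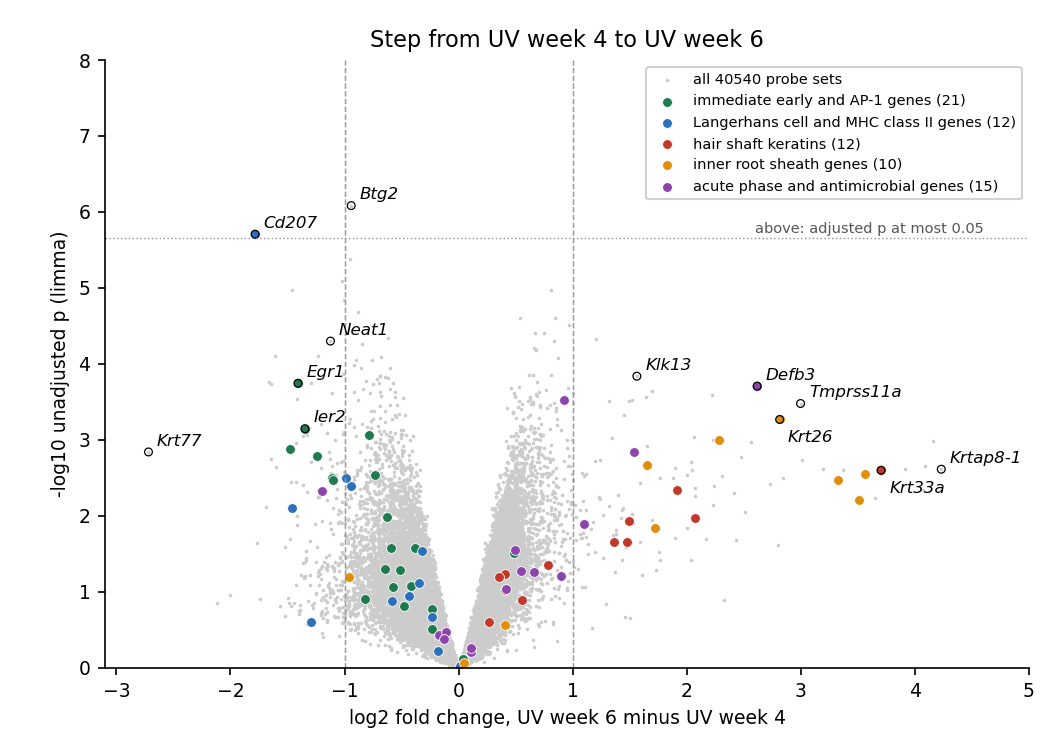
Each point is a probe set, with its log2 fold change between UV week 6 and UV week 4 on the horizontal axis and the -log10 of its unadjusted limma p on the vertical axis; members of 5 gene lists are coloured, and dashed lines mark 2-fold. Btg2 and Cd207 are the points above the dotted line, and the hair keratins lie far to the right at moderate p.

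The 6 arrays were not equally good. The log2 ratio of the 3' to the 5' control probe set of beta-actin, which grows as RNA is degraded, was 4.12, 2.36 and 5.11 in UV week 6 and 3.38, 4.05 and 2.96 in UV week 4 (3.86 ± 1.39 against 3.46 ± 0.55, SD, n = 3 each; two-sided exact permutation test, p = 0.6, where 0.1 is the smallest p possible). Correlations across probe sets were 0.981 to 0.988 within UV week 6 and 0.992 to 0.993 within UV week 4, so the UV week 6 arrays varied more among themselves. Array 445 had the highest ratio and array 443 the lowest of the 6. The median log2 level of the 209 probe sets at least 2-fold lower was 6.27, 7.34 and 5.85 in UV week 6, so that array 443 was the highest, and 7.41, 7.51 and 7.91 in UV week 4. In UV week 8, at ratios of 2.77, 5.14 and 4.90, it was 8.02, 5.81 and 5.76, and in UV week 1, at ratios of 4.88, 4.39 and 2.71, it was 6.17, 6.55 and 7.73. In 159 of these 209 probe sets (76.1%), against 12.8% of all tested, the array of lowest ratio was the highest array in each of UV weeks 1, 6 and 8. The same held in 0 of the 123 probe sets at least 2-fold higher. Of the 79 genes given below with their values on each array, it held in 15 of the 40 below 0 and in 0 of the 39 above 0. The 15 were Btg2, Cd74, H2-Ab1, H2-DMa, Ier2, Jun, Gata3, Krt15, Krt17, Orm1, Neurl1b, Zkscan5, Slc1a5, Mcm2 and Cdkn1a. The reverse order, with the array of lowest ratio the lowest, was not counted, and these counts of 0 do not bear on it. Of the 123 higher probe sets the median log2 level was 7.455, 7.637 and 7.473 in UV week 6. In UV week 4 it was 4.955, 5.026 and 6.672. In UV week 8 it was 5.3, 7.17 and 7.37, and in UV week 1 8.98, 8.57 and 8.31. The array of lowest ratio was thus the highest in UV weeks 4 and 6 and the lowest in UV weeks 1 and 8. Genes given below by their fold change alone were not examined for the order of arrays. The part of RNA quality in the results below was not tested beyond the fit with this ratio as a covariate.

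Cd207, the gene of langerin, the lectin by which Langerhans cells are known, fell in UV week 6 skin. Its log2 intensity was 6.76, 6.77 and 7.39 in UV week 6, against 8.62, 8.95 and 8.70 in UV week 4. All 3 UV week 6 arrays lay below all 3 UV week 4 arrays, and array 445, the highest of UV week 6, was still below array 331, the lowest of UV week 4. The group means were 6.97 ± 0.36 in UV week 6 and 8.76 ± 0.18 in UV week 4 (SD, n = 3 each), 3.44-fold lower (log2 fold change -1.78, SE 0.26, adjusted p = 0.0399). In whole skin, fewer cells of a type and less RNA per cell cannot be told apart, here and for every gene below. The call depended on most of the arrays. The adjusted p became 0.12, 0.263 and 0.0561 without arrays 331, 333 and 334, and 0.266 and 0.102 without arrays 441 and 443, while it was 0.039 without array 445. The log2 fold change stayed between -1.99 and -1.68 in these fits.

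The other genes of antigen presentation lay mostly on the same side without passing. Of 12 measured members of the list of Langerhans cell and MHC class II genes (13 listed), 11 were below 0, 5 were lower at an unadjusted p under 0.05 (7.25% of all genes were) and 7 had arrays that did not overlap, lower (13.5% of all genes). The list median was -0.51 on the log2 scale, against 0.01 over all 17403 genes, and -0.42 with the beta-actin ratio as a covariate. Cd74, the invariant chain that escorts class II molecules, had a log2 intensity of 9.40, 10.86 and 9.60 in UV week 6 skin and 10.97, 11.55 and 11.71 in UV week 4 skin (log2 fold change -1.46, SE 0.49, adjusted p = 0.287). Array 443, the array of lowest beta-actin ratio, was the highest of UV week 6 and still just below array 331. The array of lowest ratio was also the highest for Cd74 in other weeks, with 11.57, 9.55 and 9.30 in arrays 551, 552 and 555 of UV week 8 and 10.07, 9.91 and 11.35 in arrays 112, 114 and 116 of UV week 1. With the ratio as a covariate its log2 fold change was -1.23 (adjusted p = 0.0679). H2-DMa, a subunit of the chaperone that loads peptide, measured 6.60, 7.37 and 7.26 in UV week 6 and 7.66, 8.25 and 8.29 in UV week 4 (log2 fold change -0.99, SE 0.29, adjusted p = 0.242). H2-Ab1, the beta chain of the I-A molecule, measured 10.17, 10.84 and 10.80 in UV week 6, against 11.09, 11.81 and 11.75 in UV week 4 (log2 fold change -0.95, SE 0.29, adjusted p = 0.252). For both genes array 441 was the lowest of the 6 and the groups did not overlap, while 2 other probe sets of H2-Ab1, at log2 fold changes of -1.22 and -1.77, overlapped. The partner chain H2-Aa, at 11.57, 11.80 and 11.94 in UV week 6 skin and 11.64, 12.12 and 12.26 in UV week 4 skin, overlapped between groups (log2 fold change -0.24, SE 0.19, adjusted p = 0.568), as did its 3 other probe sets at log2 fold changes of -0.70, -0.54 and -0.98. H2-Eb1, the beta chain of the I-E molecule, ranged so widely within groups, at 8.96, 6.65 and 9.03 in UV week 6 and 6.79, 11.34 and 10.39 in UV week 4, that its low arrays 443 and 331 came from both weeks. Epcam, an adhesion molecule of Langerhans cells and follicle epithelium, was at 10.30, 10.63 and 10.66 in UV week 6, against 10.78, 11.22 and 10.90 in UV week 4 (log2 fold change -0.44, SE 0.26, adjusted p = 0.481). Its groups did not overlap, with a smaller difference than that of Cd207. Ciita, the transactivator of class II genes, measured 4.66, 4.65 and 4.38 in UV week 6 skin and 4.90, 4.81 and 4.93 in UV week 4 skin at the low end of the range of the arrays (log2 fold change -0.32, SE 0.13, adjusted p = 0.369). The general dendritic cell integrin Itgax overlapped between groups, with 8.07, 8.46 and 8.0016 in UV week 6 and 9.21, 7.92 and 9.16 in UV week 4.

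Btg2, an antiproliferative gene induced by p53 and by mitogens, fell as well. It is in none of the lists and was chosen after its values were seen, because it passed the adjusted test. Its log2 intensity was 8.26, 8.35 and 8.28 in UV week 6, against 9.50, 9.01 and 9.20 in UV week 4. The UV week 6 arrays were almost level with each other and all below UV week 4, where array 331 was the highest. The means were 8.29 ± 0.05 in UV week 6 and 9.23 ± 0.25 in UV week 4 (SD, n = 3 each), 1.92-fold lower (log2 fold change -0.94, SE 0.13, adjusted p = 0.0335), just short of the 2-fold minimum, and with the beta-actin ratio as a covariate the adjusted p was 0.0127. Leaving out array 333 kept the adjusted p at 0.0205, and leaving out any of the other 5 arrays put it between 0.0561 and 0.26. A second probe set of Btg2 had a log2 fold change of -0.46 (adjusted p = 0.502) with overlapping arrays.

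Immediate early genes had the lowest median of the 49 lists examined. Of 21 measured members (22 listed), 19 were below 0, 11 were lower by unadjusted p under 0.05 and 1 was higher (7.25% and 6.45% of all genes), and 9 had arrays that did not overlap, all lower (13.5% of all genes). The median was -0.62 on the log2 scale and -0.54 with the beta-actin ratio as a covariate, and it lay between -0.84 and -0.49 when each array was left out. Egr1, a zinc finger transcription factor of the early growth response, was at 9.51, 10.08 and 11.02 in UV week 6 skin and 11.72, 11.32 and 11.81 in UV week 4 skin (log2 fold change -1.41, SE 0.30, adjusted p = 0.151). The UV week 6 arrays were spread over more than a log2 unit, and all lay below UV week 4. Ier2, a small nuclear protein of the same wave, was at 7.30, 8.04 and 7.40 in UV week 6 and 9.14, 8.46 and 9.18 in UV week 4 (log2 fold change -1.35, SE 0.33, adjusted p = 0.199). Zfp36, which encodes tristetraprolin, a protein that speeds the decay of cytokine mRNAs, was at 7.95, 8.20 and 8.76 in UV week 6, against 9.82, 8.99 and 9.82 in UV week 4 (log2 fold change -1.24, SE 0.34, adjusted p = 0.218). Both kept the groups apart, with array 333 the lowest of UV week 4 each time.

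Among the AP-1 subunits, Jun had groups apart and Fos and Fosb overlapped. Jun was at 7.79, 8.21 and 8.19 in UV week 6 skin and 8.97, 8.61 and 8.97 in UV week 4 skin (log2 fold change -0.79, SE 0.20, adjusted p = 0.199). Fos was at 11.03, 10.89 and 12.32 in UV week 6 and 13.37, 12.19 and 13.11 in UV week 4 (log2 fold change -1.47, SE 0.39, adjusted p = 0.212), where array 445 of UV week 6 lay slightly above array 333 of UV week 4. Fosb was at 3.76, 4.32 and 5.14 in UV week 6, against 6.11, 4.68 and 5.75 in UV week 4 (log2 fold change -1.11, SE 0.33, adjusted p = 0.242) and overlapped in the same pair of arrays. Ccn1, a matrix protein gene induced by growth factors, was at 8.12, 8.02 and 7.07 in UV week 6 skin and 8.80, 8.33 and 9.39 in UV week 4 skin (log2 fold change -1.10, SE 0.33, adjusted p = 0.243), and here array 445 was the lowest of all. Klf2, a Krüppel-like transcription factor, was at 8.24, 8.24 and 8.89 in UV week 6 and 9.18, 8.99 and 9.39 in UV week 4 (log2 fold change -0.73, SE 0.21, adjusted p = 0.241), with no overlap. Dusp1, a phosphatase of MAP kinases, was at 11.59, 11.88 and 12.27 in UV week 6, against 12.73, 12.21 and 12.67 in UV week 4 (log2 fold change -0.62, SE 0.22, adjusted p = 0.299), with array 445 just above array 333. Fosl1, which encodes Fra-1, ran the other way, at 5.58, 5.36 and 4.90 in UV week 6 skin and 5.14, 4.41 and 4.84 in UV week 4 skin (log2 fold change 0.49, SE 0.21, adjusted p = 0.375), with array 445 of UV week 6 below array 331 of UV week 4.

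Promoter sequences from RefSeq (build GRCm38.p6, the 250 bases before and 50 after the start of each gene) are printed for the 2 genes that passed, for Zfp36 as a member of the immediate early list and for Krt27 as a member of the follicle lists described below. Capitals mark a match to the letters of a known element on either strand, which is a description of these letters and not a site of binding. Cd207 lies on the minus strand at chr6:83677808-83678107 and carries TGANTCA, the AP-1 element, in capitals. Btg2 lies on the minus strand at chr1:134079106-134079405 and carries TGACGTCA, the cyclic AMP response element. Zfp36 lies on the minus strand at chr7:28379179-28379478 and carries a CArG box, the element of serum response factor. Krt27 lies on the minus strand at chr11:99351069-99351368 and carries TATAAA, the box at which many transcripts are started.
Cd207: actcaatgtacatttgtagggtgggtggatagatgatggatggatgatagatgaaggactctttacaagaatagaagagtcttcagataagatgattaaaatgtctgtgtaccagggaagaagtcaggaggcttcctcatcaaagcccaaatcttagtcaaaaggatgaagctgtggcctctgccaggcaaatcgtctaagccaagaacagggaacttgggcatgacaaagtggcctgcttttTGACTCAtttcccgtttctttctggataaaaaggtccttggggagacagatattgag
Btg2: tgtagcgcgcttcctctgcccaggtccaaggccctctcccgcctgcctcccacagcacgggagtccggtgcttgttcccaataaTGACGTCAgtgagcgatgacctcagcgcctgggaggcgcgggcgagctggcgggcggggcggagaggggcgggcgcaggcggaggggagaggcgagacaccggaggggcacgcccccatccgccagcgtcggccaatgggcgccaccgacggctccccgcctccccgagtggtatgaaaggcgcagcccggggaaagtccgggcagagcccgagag
Zfp36: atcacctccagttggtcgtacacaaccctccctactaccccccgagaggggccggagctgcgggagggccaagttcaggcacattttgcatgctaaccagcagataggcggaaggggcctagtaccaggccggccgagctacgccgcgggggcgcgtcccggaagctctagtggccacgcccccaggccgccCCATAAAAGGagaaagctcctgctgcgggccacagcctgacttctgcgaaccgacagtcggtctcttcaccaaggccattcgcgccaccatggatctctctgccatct
Krt27: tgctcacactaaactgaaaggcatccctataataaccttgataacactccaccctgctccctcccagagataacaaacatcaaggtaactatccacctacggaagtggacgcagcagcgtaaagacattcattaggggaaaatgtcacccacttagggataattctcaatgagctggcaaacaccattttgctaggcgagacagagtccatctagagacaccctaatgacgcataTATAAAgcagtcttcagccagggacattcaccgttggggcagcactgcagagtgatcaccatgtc

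Of 22 immediate early genes measured, Btg2 included, 17 had a promoter in the table. TGACGTCA was present in 2 of them (Btg2 and Dusp1), a CArG box in 2 (Egr2 and Zfp36) and TGANTCA in 0, against 1.79%, 1.63% and 7.81% of all 32851 promoters of the same length. Among the 7 promoters found for the Langerhans cell and class II list, 3 held TGANTCA (Cd207, H2-DMa and Itgax). TATAAA was present in 5 of 7 promoters of hair shaft keratins, 7 of 10 of inner root sheath genes and 29 of 36 of keratin-associated proteins, against 13.6% of all promoters.

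Hair follicle genes had the highest list medians of the step, and no member passed the adjusted test. All 12 measured hair shaft keratins (13 listed) were above 0 (51.2% of all genes were), 7 of them at an unadjusted p under 0.05 (6.45% of all genes were higher at that p) and 6 with arrays that did not overlap, higher (11.7% of all genes). Their median was 1.07 on the log2 scale. Krt33a, a keratin of the hair cortex, measured 8.67, 9.13 and 8.53 in UV week 6 and 3.92, 2.96 and 8.34 in UV week 4 (log2 fold change 3.70, SE 1.06, adjusted p = 0.235). Its 3 UV week 6 arrays were level with each other and array 334 of UV week 4 was close to them, while arrays 331 and 333 were lower by more than 4 log2 units. Krt31, another cortex keratin, measured 7.59, 8.31 and 8.24 in UV week 6, against 5.59, 5.40 and 7.41 in UV week 4 (log2 fold change 1.91, SE 0.59, adjusted p = 0.262), again with array 334 nearest to UV week 6.

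The inner root sheath moulds the growing hair. Of 10 measured genes (11 listed), 9 were above 0 (51.2% of all genes were), and the median was 2.00. At an unadjusted p under 0.05, 7 were higher (6.45% of all genes). Arrays were apart and higher for 4 and apart and lower for 1 (11.7% and 13.5% of all genes). Krt26 measured 7.87, 7.9985 and 7.55 in UV week 6 skin and 4.46, 4.07 and 6.45 in UV week 4 skin (log2 fold change 2.81, SE 0.67, adjusted p = 0.176) and had the smallest p among these 10 genes. Krt28 measured 8.70, 9.03 and 8.24 in UV week 6 and 5.76, 5.67 and 7.70 in UV week 4 (log2 fold change 2.28, SE 0.59, adjusted p = 0.204). Both kept array 334 below the UV week 6 arrays. Krt27 measured 10.9998, 11.27 and 10.38 in UV week 6, against 6.46, 5.22 and 10.28 in UV week 4 (log2 fold change 3.56, SE 1.04, adjusted p = 0.24), and here arrays 334 and 445 were nearly level. In Krt25, at 11.33, 11.60 and 10.03 in UV week 6 skin and 6.68, 5.03 and 10.72 in UV week 4 skin, and in Tchh, the gene of trichohyalin that hardens the sheath, at 11.86, 12.22 and 11.21 in UV week 6 and 7.25, 6.42 and 11.65 in UV week 4, array 334 was above array 445, so the groups overlapped. Gata3, a transcription factor of the sheath and of other epithelial and immune cells, was the member below 0, at 6.61, 7.50 and 6.34 in UV week 6, against 7.62, 7.82 and 7.90 in UV week 4 (log2 fold change -0.96, SE 0.49, adjusted p = 0.42).

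Keratin-associated proteins fill the space between keratin filaments of the hair shaft. This list was added after the values were seen. All 38 measured members were above 0 (51.2% of all genes were), 25 of them at least 2-fold (0.5% of all genes). At an unadjusted p under 0.05, 20 were higher (6.45% of all genes), and 12 had arrays apart and higher (11.7% of all genes). Their median was 1.75 (1.72 with the beta-actin ratio as a covariate). Krtap4-2, of the group very rich in cysteine, measured 7.68, 8.11 and 7.44 in UV week 6 skin and 3.71, 3.55 and 6.57 in UV week 4 skin (log2 fold change 3.13, SE 0.79, adjusted p = 0.199). Krtap8-1, of the group rich in glycine and tyrosine, measured 10.94, 11.45 and 11.19 in UV week 6 and 6.40, 4.04 and 10.46 in UV week 4 (log2 fold change 4.23, SE 1.21, adjusted p = 0.235). Krtap22-2 measured 10.05, 10.88 and 10.82 in UV week 6, against 5.08, 4.41 and 9.97 in UV week 4 (log2 fold change 4.09, SE 1.15, adjusted p = 0.232). In each of the 3 genes arrays 331 and 333 were far below the other 4 arrays. Without array 334 the fold change of Krtap8-1 was 5.98 on the log2 scale, and without array 333 it was 2.77.

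Among regulators of the follicle, Shh, the hedgehog ligand of the growing hair bulb, measured 7.40, 6.92 and 6.98 in UV week 6 skin and 6.11, 5.66 and 6.28 in UV week 4 skin (log2 fold change 1.08, SE 0.42, adjusted p = 0.344), with no overlap and array 334 the nearest. A second probe set of Shh had a log2 fold change of 0.27 with overlapping arrays. Padi3, an enzyme that citrullinates trichohyalin, measured 5.84, 6.36 and 5.95 in UV week 6 and 4.76, 4.02 and 5.98 in UV week 4 (log2 fold change 1.13, SE 0.49, adjusted p = 0.377), with array 334 level with UV week 6. Over the 16 measured regulators (17 listed) the median was 0.13, with 3 higher at an unadjusted p under 0.05 (6.45% of all genes).

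Follicle genes in UV week 4 skin were low against the first non-irradiated group. The mean log2 level of Krt26 was 10.18 at control week 1, 8.39 at control week 8, and 10.13, 8.64, 4.99, 7.80 and 6.17 at UV weeks 1, 2, 4, 6 and 8. Against control week 1, 10 of the 12 hair shaft keratins fell at UV week 4 and 9 fell at UV week 6 by adjusted p alone (1.16% and 7.65% of all genes did), with median log2 fold changes of -2.99 and -2.03. Non-irradiated skin also differed between its 2 ages, with a median of -1.61 at control week 8 against control week 1. The UV week 8 arrays were split like those of UV week 4, with a median for keratin-associated proteins against control week 1 of -5.33 in array 551 and -2.93 and -2.24 in arrays 552 and 555. These comparisons share arrays with the step and are given as values only.

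**Figure D2:**
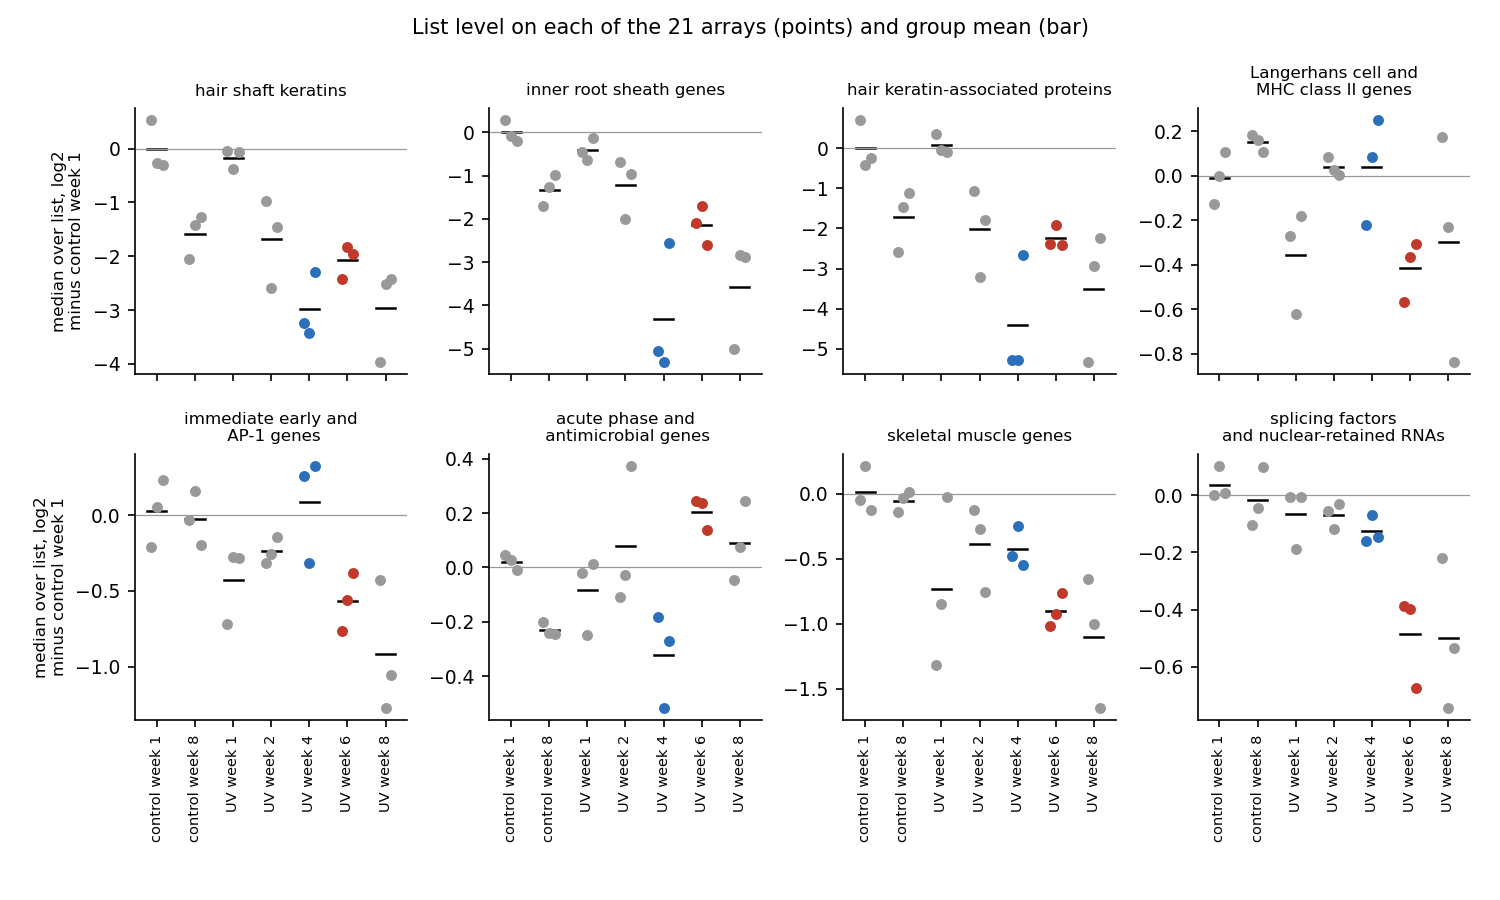
For 8 gene lists, each point is an array and gives the median over the list of its log2 level minus the mean of control week 1; bars are group means of 3 arrays, UV week 6 is red and UV week 4 blue. In the 3 follicle lists array 334 stands with UV week 6 while arrays 331 and 333 are the low ones.

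Keratins of the skin between follicles lay on the other side. All 9 measured were below 0 (51.2% of all genes were above 0), with a median of -0.38. Of these, 2 were lower at an unadjusted p under 0.05 (7.25% of all genes), and 4 had arrays apart and lower (13.5% of all genes). Krt77, a type II keratin, measured 5.54, 6.28 and 7.13 in UV week 6, against 9.74, 7.74 and 9.63 in UV week 4 (log2 fold change -2.72, SE 0.73, adjusted p = 0.216). All UV week 6 arrays were below array 333, the lowest of UV week 4. Krt77 was already lower at UV week 4 than at control week 1 (log2 fold change -3.53, adjusted p = 0.0183), and its mean log2 level was 12.56 at control week 1, 13.09 at control week 8, and 10.48, 8.29, 9.04, 6.32 and 6.56 at UV weeks 1, 2, 4, 6 and 8. Krt15, a keratin of basal cells and of the follicle bulge, measured 9.30, 10.07 and 9.38 in UV week 6 skin and 10.72, 11.18 and 10.94 in UV week 4 skin (log2 fold change -1.37, SE 0.41, adjusted p = 0.251), with the groups apart and array 443 the highest of UV week 6. With the beta-actin ratio as a covariate its log2 fold change was -1.18 (adjusted p = 0.0679).

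Keratins made in wounds did not move together. Krt6b measured 14.23, 13.88 and 13.11 in UV week 6 and 12.26, 11.39 and 12.28 in UV week 4 (log2 fold change 1.77, SE 0.52, adjusted p = 0.242), with every UV week 6 array above UV week 4. Krt17 measured 9.86, 10.96 and 10.18 in UV week 6, against 11.06, 11.28 and 11.48 in UV week 4 (log2 fold change -0.94, SE 0.49, adjusted p = 0.428), with every UV week 6 array below (log2 fold change -0.73 with the beta-actin ratio as a covariate). The median over the 4 members of this list was -0.06.

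Genes of the cornified envelope, the protein shell of the dead outer cells, lay on both sides of 0. Of 23 measured (26 listed), 4 were higher at an unadjusted p under 0.05 and 0 lower (6.45% and 7.25% of all genes), 8 had arrays apart and higher (11.7% of all genes), 3 apart and lower, a share near the 13.5% of all genes, and the median was 0.11. Lce3f, a late cornified envelope gene, measured 11.95, 11.28 and 10.32 in UV week 6 skin and 9.15, 8.74 and 9.46 in UV week 4 skin (log2 fold change 2.07, SE 0.52, adjusted p = 0.201), and Lce3a of the same cluster measured 7.45, 7.03 and 7.47 in UV week 6 and 5.86, 5.61 and 5.22 in UV week 4 (log2 fold change 1.76, SE 0.75, adjusted p = 0.372), where the SE is pooled over the 7 groups and arrays of other weeks were more scattered. Sprr2h, a small proline-rich protein gene, measured 12.59, 11.95 and 11.52 in UV week 6, against 11.02, 10.55 and 11.18 in UV week 4 (log2 fold change 1.10, SE 0.32, adjusted p = 0.241), and Sprr2d measured 13.64, 13.21 and 12.52 in UV week 6 skin and 12.23, 12.27 and 12.43 in UV week 4 skin (log2 fold change 0.81, SE 0.28, adjusted p = 0.288). Lce3f, Sprr2h and Sprr2d had the same order of arrays in UV week 6, with array 441 the highest and array 445 the lowest. Of the same cluster Lce3b and Lce3c had log2 fold changes of 0.07 and 0.38, and the scaffold members Ppl, Tgm1 and Evpl, none at an unadjusted p under 0.05, had log2 fold changes of -0.68, -0.64 and -0.63.

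Epidermal proteases lay on both sides of 0, with Tmprss11a far above the others of their list. Klk13, a kallikrein-related peptidase, measured 11.79, 11.20 and 10.69 in UV week 6 and 9.27, 10.14 and 9.57 in UV week 4 (log2 fold change 1.56, SE 0.33, adjusted p = 0.151). Tmprss11a, a membrane-bound serine protease of squamous epithelia, measured 8.96, 7.64 and 5.64 in UV week 6, against 3.74, 4.85 and 4.65 in UV week 4 (log2 fold change 2.9975, SE 0.68, adjusted p = 0.151), so that array 441 was above array 445 by more than 3 log2 units while both exceeded UV week 4. Its neighbours in the family were nearer to level, Tmprss11f at 8.73, 8.52 and 8.78 in UV week 6 skin and 8.12, 7.91 and 8.12 in UV week 4 skin (log2 fold change 0.63, SE 0.15, adjusted p = 0.199) and Tmprss11d at 5.12, 4.14 and 4.20 in UV week 6 and 3.90, 4.04 and 3.84 in UV week 4 (log2 fold change 0.56, SE 0.20, adjusted p = 0.306). These 4 were the members of the 17 serine proteases measured that were higher at an unadjusted p under 0.05 (6.45% of all genes). Of the 17, 11 were below 0, with a median of -0.16.

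Of 15 inhibitors measured (23 listed), 13 were above 0 and 4 were higher at an unadjusted p under 0.05 (6.45% of all genes), with a median of 0.33. Wfdc12, a whey acidic protein inhibitor, measured 13.05, 12.74 and 11.97 in UV week 6, against 11.05, 11.86 and 11.65 in UV week 4 (log2 fold change 1.07, SE 0.41, adjusted p = 0.335). Spink12, a Kazal-type inhibitor, measured 8.97, 7.31 and 7.35 in UV week 6 skin and 6.46, 7.02 and 6.02 in UV week 4 skin (log2 fold change 1.38, SE 0.52, adjusted p = 0.326), where array 441 stood above the others. Stfa2l1, of the stefin family of cathepsin inhibitors, measured 12.11, 11.18 and 9.82 in UV week 6 and 9.53, 9.02 and 10.0013 in UV week 4 (log2 fold change 1.52, SE 0.52, adjusted p = 0.294), and array 445 lay below array 334. Wfdc18 measured 8.80, 8.91 and 8.08 in UV week 6, against 7.60, 7.27 and 7.98 in UV week 4 (log2 fold change 0.98, SE 0.38, adjusted p = 0.343). Its groups did not overlap.

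Antimicrobial genes were higher more often than lower. Of 15 measured members of the acute phase and antimicrobial list (17 listed), 11 were above 0, 5 were higher by unadjusted p under 0.05 and 1 was lower (6.45% and 7.25% of all genes), 8 had arrays apart and higher and 1 apart and lower (11.7% and 13.5% of all genes), and the median was 0.49. Defb3, an inducible beta-defensin, measured 8.16, 7.60 and 8.91 in UV week 6 skin and 5.83, 5.03 and 5.95 in UV week 4 skin (log2 fold change 2.62, SE 0.57, adjusted p = 0.151). All 3 UV week 6 arrays were well above UV week 4, and array 445 was the highest. Defb1, a beta-defensin made without induction, measured 11.67, 11.24 and 11.01 in UV week 6 and 10.38, 10.25 and 10.51 in UV week 4 (log2 fold change 0.93, SE 0.21, adjusted p = 0.151). Saa3, a serum amyloid A made in inflamed tissue, measured 12.76, 12.85 and 11.45 in UV week 6, against 11.07, 10.34 and 11.03 in UV week 4 (log2 fold change 1.54, SE 0.41, adjusted p = 0.216). In both genes array 445 was the lowest of UV week 6 and remained above UV week 4. Reg3g, a lectin that kills Gram-positive bacteria, measured 6.72, 6.45 and 5.35 in UV week 6 skin and 5.20, 5.08 and 4.94 in UV week 4 skin (log2 fold change 1.10, SE 0.40, adjusted p = 0.311). Orm1, the acute phase glycoprotein orosomucoid, was the member that lay lower, at 8.50, 8.86 and 8.56 in UV week 6 and 9.87, 9.69 and 9.97 in UV week 4 (log2 fold change -1.20, SE 0.37, adjusted p = 0.262).

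S100a8 and S100a9 pair as calprotectin in neutrophils and stressed keratinocytes. Each had a higher mean in UV week 6 skin, where its arrays lay closer together than in UV week 4 skin. S100a8 measured 11.06, 11.47 and 11.77 in UV week 6, against 11.02, 9.02 and 10.11 in UV week 4 (log2 fold change 1.38, SE 0.53, adjusted p = 0.335). S100a9 measured 10.92, 10.75 and 10.77 in UV week 6 skin and 10.47, 8.27 and 9.27 in UV week 4 skin (log2 fold change 1.48, SE 0.53, adjusted p = 0.304). In both, array 331 lay close below UV week 6 and array 333 was the lowest. Of the 11 measured S100 genes (13 listed), 7 were below 0, and the median was -0.12. At an unadjusted p under 0.05, 3 were higher and 0 lower (6.45% and 7.25% of all genes). Il33, an alarmin of the interleukin-1 family, measured 9.47, 9.28 and 9.09 in UV week 6 and 8.85, 8.11 and 8.29 in UV week 4 (log2 fold change 0.86, SE 0.31, adjusted p = 0.306). The list of the interleukin-1 family and neutrophil genes had 13 of 16 measured members above 0 and a median of 0.18, and that of interferon-stimulated genes 18 of 27 above 0 and a median of 0.08.

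**Figure D3:**
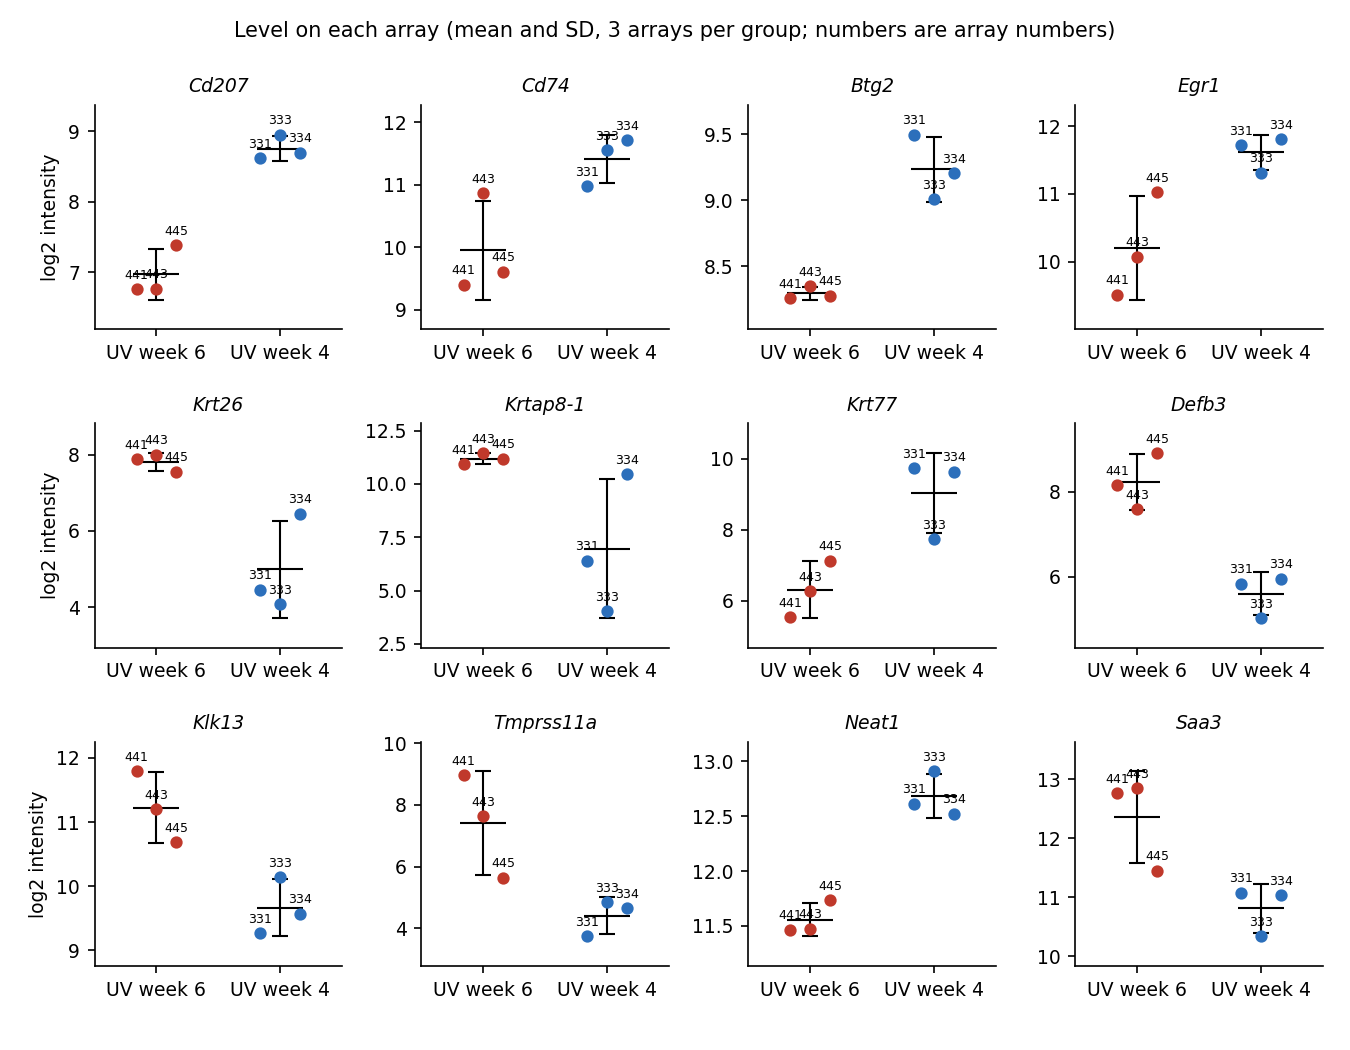
Each panel gives the log2 intensity of a gene on each of the 3 UV week 6 arrays and the 3 UV week 4 arrays, with the mean and SD of each group as bars and the array number beside each point. Cd207, Btg2 and Neat1 have tight groups that stand apart, whereas Krt26 and Krtap8-1 have a high array 334 in UV week 4.

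The remaining genes with the smallest p among those at least 2-fold higher, with arrays apart, had no role in common that the lists cover. Nmu, which encodes the neuropeptide neuromedin U, measured 9.22, 8.12 and 7.51 in UV week 6, against 6.54, 7.13 and 6.70 in UV week 4 (log2 fold change 1.49, SE 0.34, adjusted p = 0.151). Tacr3, the receptor of neurokinin B, measured 7.88, 7.92 and 8.09 in UV week 6 skin and 6.84, 7.21 and 6.83 in UV week 4 skin (log2 fold change 1.0007, SE 0.23, adjusted p = 0.151). Kng1, the kininogen from which bradykinin is cut, measured 5.48, 5.79 and 5.41 in UV week 6 and 4.17, 4.20 and 3.94 in UV week 4 (log2 fold change 1.45, SE 0.34, adjusted p = 0.169). Ankrd37, an ankyrin repeat gene induced by hypoxia, measured 7.19, 6.60 and 7.28 in UV week 6, against 5.90, 6.38 and 5.77 in UV week 4 (log2 fold change 1.01, SE 0.22, adjusted p = 0.151). Tacr3 was the most even in UV week 6 of these 4 and Nmu the most scattered, with array 441 the highest. Other probe sets did not reach these fold changes. Those of Tacr3 had log2 fold changes of 0.28 and 0.17 and that of Kng1 had 0.12, all with overlapping arrays. Over 18 measured hypoxia-responsive genes the median was 0.19, with 4 higher by unadjusted p under 0.05 (6.45% of all genes) and 0 lower.

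On the lower side Neat1, the long noncoding RNA around which paraspeckles form, measured 11.47, 11.47 and 11.73 in UV week 6 skin and 12.61, 12.91 and 12.52 in UV week 4 skin (log2 fold change -1.12, SE 0.21, adjusted p = 0.12). The groups were tight and apart, and the adjusted p with the beta-actin ratio as a covariate was 0.0356. A second probe set of Neat1 had a log2 fold change of 0.19 and did not share the direction. Ptgfr, the receptor of prostaglandin F, measured 5.26, 5.19 and 5.47 in UV week 6 and 6.76, 6.64 and 6.24 in UV week 4 (log2 fold change -1.24, SE 0.24, adjusted p = 0.134, and adjusted p = 0.0497 with the ratio). Prkd2, the gene of protein kinase D2, measured 5.16, 5.25 and 5.85 in UV week 6, against 6.25, 6.54 and 6.51 in UV week 4 (log2 fold change -1.01, SE 0.21, adjusted p = 0.151, and adjusted p = 0.0467 with the ratio). The other probe sets of Prkd2 had log2 fold changes of -1.46, -0.57 and 0.04, of which the first had an adjusted p of 0.0715, and of 0.0217 with the ratio. Neurl1b, a ubiquitin ligase of the Notch pathway, measured 6.30, 7.04 and 5.97 in UV week 6 skin and 7.60, 7.94 and 7.66 in UV week 4 skin (log2 fold change -1.30, SE 0.28, adjusted p = 0.151, and adjusted p = 0.0251 with the ratio). Alox12e, the epidermal 12-lipoxygenase of mice, measured 8.03, 8.83 and 8.97 in UV week 6 and 9.81, 10.05 and 10.07 in UV week 4 (log2 fold change -1.37, SE 0.35, adjusted p = 0.199). Slc1a5, a transporter of glutamine, measured 6.76, 7.67 and 7.19 in UV week 6, against 8.44, 8.08 and 8.35 in UV week 4 (log2 fold change -1.08, SE 0.28, adjusted p = 0.204). Zkscan5, a zinc finger gene, measured 3.99, 4.67 and 3.61 in UV week 6 skin and 5.01, 5.13 and 5.19 in UV week 4 skin near the bottom of the intensity range (log2 fold change -1.02, SE 0.26, adjusted p = 0.199). In Neurl1b, Slc1a5 and Zkscan5 array 443 was the UV week 6 array nearest to UV week 4, and in Alox12e and Prkd2 it was array 445.

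Splicing factors had many small negative fold changes. Of 25 measured members (26 listed), 22 were below 0, 8 were lower by unadjusted p under 0.05 and 1 was higher (7.25% and 6.45% of all genes), and 14 had arrays apart and lower and 2 apart and higher (13.5% and 11.7% of all genes), with a median of -0.41 (-0.34 with the beta-actin ratio). Srsf1, a serine and arginine rich splicing factor, measured 10.88, 10.87 and 10.68 in UV week 6 and 11.34, 11.53 and 11.40 in UV week 4 (log2 fold change -0.61, SE 0.16, adjusted p = 0.199). Tra2a, its relative that binds splicing enhancers, measured 9.92, 9.71 and 9.90 in UV week 6, against 10.44, 10.39 and 10.41 in UV week 4 (log2 fold change -0.57, SE 0.12, adjusted p = 0.151). Both kept the groups apart with little spread, although 2 other probe sets of Tra2a had log2 fold changes of 0.18 and 0.29. Malat1, a noncoding RNA of nuclear speckles, measured 10.38, 9.88 and 9.91 in UV week 6 skin and 9.77, 9.62 and 9.39 in UV week 4 skin (log2 fold change 0.46, SE 0.15, adjusted p = 0.271). It lay higher, and 2 other probe sets had log2 fold changes of -0.04 and -0.64. Arrays apart and lower were not particular to splicing factors. Ribosomal protein genes had 10 of 18 measured members apart and lower (13.5% of all genes) and 15 below 0. Their median was -0.17, with 3 lower at an unadjusted p under 0.05 (7.25% of all genes).

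Clock genes were measured at unstated times of day. Hlf, a transcription factor driven by the clock, measured 6.54, 6.45 and 6.56 in UV week 6 and 7.44, 7.30 and 6.91 in UV week 4 (log2 fold change -0.70, SE 0.18, adjusted p = 0.21). Per2, a repressor within it, measured 5.26, 5.23 and 5.23 in UV week 6, against 6.09, 6.15 and 5.67 in UV week 4 (log2 fold change -0.73, SE 0.26, adjusted p = 0.304), and 2 other probe sets had log2 fold changes of 0.31 and 0.20. Arntl, an activator within it, measured 7.87, 7.32 and 7.43 in UV week 6 skin and 7.01, 6.96 and 7.16 in UV week 4 skin (log2 fold change 0.50, SE 0.15, adjusted p = 0.251). Hlf and Per2 were lower and Arntl higher on all UV week 6 arrays. Of 17 clock genes measured, 5 were lower by unadjusted p under 0.05 and 1 was higher (7.25% and 6.45% of all genes), with a median of -0.21.

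Among targets of p53, 4 of 19 measured were lower by unadjusted p under 0.05 (7.25% of all genes) and 0 were higher, with a median of -0.19. Xpc, a sensor of DNA damage in nucleotide excision repair, measured 6.51, 6.56 and 6.68 in UV week 6 and 7.01, 7.23 and 7.03 in UV week 4 (log2 fold change -0.51, SE 0.13, adjusted p = 0.199). Cdkn1a, the inhibitor p21, measured 9.93, 10.43 and 10.28 in UV week 6, against 10.69, 10.86 and 11.07 in UV week 4 (log2 fold change -0.67, SE 0.32, adjusted p = 0.4), and a second probe set had a log2 fold change of 0.00. Of 31 measured cell cycle and mitosis genes, 7 were lower at an unadjusted p under 0.05 (7.25% of all genes), with a median of -0.22. Mcm2, of the helicase that licenses replication, measured 8.26, 8.47 and 8.38 in UV week 6 skin and 8.71, 8.79 and 8.71 in UV week 4 skin (log2 fold change -0.37, SE 0.13, adjusted p = 0.3). The groups were apart by a small margin.

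Lists of dermal matrix genes had medians between -0.30 and 0.20. Fibrillar collagens and their partners had 10 of 13 measured members below 0 and a median of -0.18, and the range of this median over fits without an array in turn was -0.26 to -0.001. Matrix metalloproteinases had 7 of 13 above 0 and a median of 0.20. Proteoglycans had a median of -0.06, elastic fibre genes -0.30 and genes of the TGF-beta pathway -0.28. Collagen processing enzymes had a median of -0.19, with 1 higher and 4 lower of 18 at an unadjusted p under 0.05, and metalloproteinase inhibitors and ADAMTS proteases a median of -0.08, with 0 higher and 2 lower of 10 (6.45% and 7.25% of all genes were higher and lower at that p). In none of these 7 lists did a gene pass the adjusted test, and in the first 5 the members at that p in either direction were 2 of 13, 1 of 13, 1 of 16, 2 of 14 and 1 of 19.

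Summed markers of skeletal muscle and of Langerhans cells (Cd207 and Epcam) were lower on all UV week 6 arrays, and those of the hair shaft were higher. The sum of 2 T cell markers was lower by a small margin. Sums for keratinocytes, fibroblasts and adipocytes overlapped between groups, although every measured marker of these had a lower mean in UV week 6. The part of these cell types in the results was not tested. Markers of other cell types were not summed, and for these only the list medians are given. They were -0.34 for sebaceous gland, -0.46 for smooth muscle and -0.27 for mast cell genes. Endothelial genes had -0.11, macrophage genes -0.02, Schwann cell genes -0.06 and red cell genes 0.27. The summed linear intensity of 6 skeletal muscle markers was 23100 to 30100 in UV week 6 and 36700 to 42300 in UV week 4, and all 6 had a lower mean in UV week 6. Over the 25 muscle genes the median was -0.48, with 7 lower by unadjusted p under 0.05 (7.25% of all genes were) and 0 higher. Myl1, a myosin light chain of fast muscle, measured 12.04, 11.78 and 11.93 in UV week 6 and 12.57, 12.84 and 12.49 in UV week 4 (log2 fold change -0.72, SE 0.25, adjusted p = 0.299), and Pvalb, a calcium buffer of the same fibres, measured 9.66, 10.27 and 11.57 in UV week 6, against 11.47, 11.66 and 11.46 in UV week 4 (log2 fold change -1.03, SE 0.37, adjusted p = 0.309) with array 445 level with UV week 4. The 4 keratinocyte markers summed to 38200 to 56100 in UV week 6 and 52700 to 61000 in UV week 4, and the 4 fibroblast markers to 7480 to 19100 in UV week 6 and 15500 to 20700 in UV week 4. The 4 measured adipocyte markers summed to 9920 to 11400 in UV week 6 and 11300 to 14300 in UV week 4. Median log2 fold changes over the markers were -0.60 for muscle, -0.40 for keratinocytes, -0.56 for fibroblasts and -0.635 for adipocytes. The 2 Langerhans cell markers summed to 1370 to 1790 in UV week 6 and 2150 to 2890 in UV week 4. Most of this sum was Epcam, which is also a gene of follicle epithelium. In UV week 6 Epcam had log2 intensities of 10.30, 10.63 and 10.66, against 6.76, 6.77 and 7.39 for Cd207. The sum is therefore not a measure of Langerhans cells alone. The 6 measured hair shaft markers summed to 1130 to 1690 in UV week 6 and 283 to 1090 in UV week 4. The 2 T cell markers, Cd3g and Cd3e (log2 fold changes -0.67 and -0.11), summed to 271 to 315 in UV week 6 and 317 to 349 in UV week 4. The wider list of Cxcr3 chemokines and T cell genes did not share this direction, with 8 of 15 measured members above 0 and a median of 0.07. Keratinocyte and fibroblast markers were high on all 6 arrays, as the label of skin implies.

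**Figure D4:**
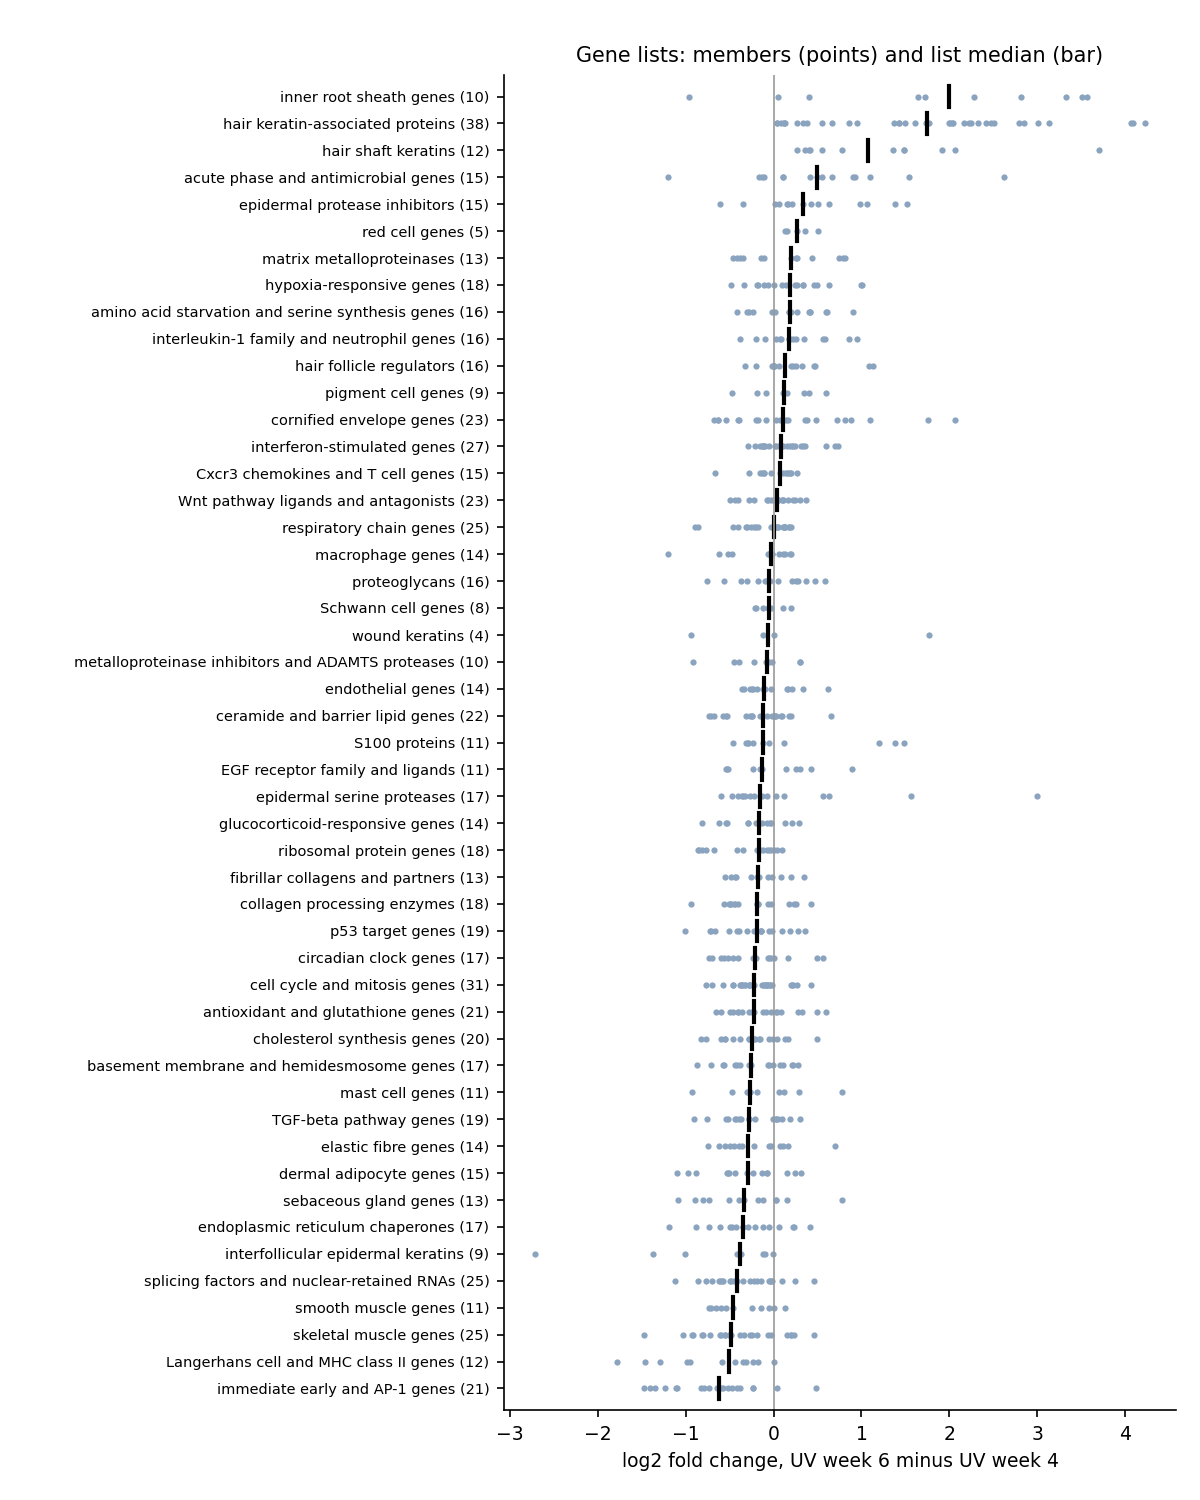
Each point is the log2 fold change of a gene between UV week 6 and UV week 4 at its probe set of highest mean, grouped by list (members measured in brackets) and ordered by list median (bar). Inner root sheath genes and keratin-associated proteins are at the top with medians of 2.00 and 1.75, and immediate early genes at the bottom with -0.62.

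Levels of 3 lists are set beside the RNA quality ratio of the arrays, and the part of that ratio in them was not tested beyond the covariate fit. The median of the immediate early list against control week 1 was -0.77, -0.56 and -0.38 in UV week 6 and 0.26, -0.32 and 0.32 in UV week 4. For the Langerhans cell and class II list the medians were -0.57, -0.37 and -0.31 in UV week 6 and -0.22, 0.08 and 0.25 in UV week 4. For keratin-associated proteins they were -2.38, -1.92 and -2.41 in UV week 6 and -5.27, -5.27 and -2.65 in UV week 4.

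**Figure D5:**
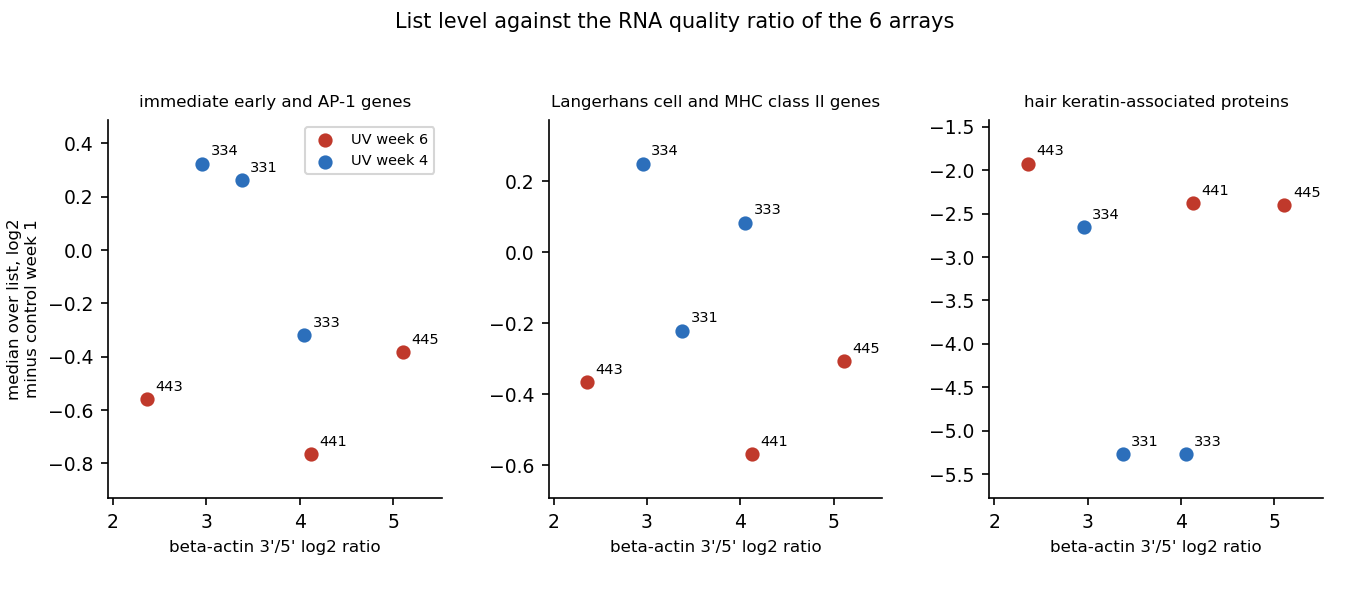
For 3 lists, each point is an array of UV week 6 (red) or UV week 4 (blue), with its beta-actin 3'/5' log2 ratio on the horizontal axis and the list median minus control week 1 on the vertical axis. In the immediate early list all UV week 6 arrays lie below all UV week 4 arrays, with array 333 the nearest; in the keratin-associated list array 334 lies near them.

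Across the weeks, the levels of these genes at UV week 8 stayed near those of UV week 6 for some groups and not for others. Cd207 had mean log2 levels of 8.88 at control week 1, 8.75 at control week 8, and 7.99, 8.03, 8.76, 6.97 and 7.13 at UV weeks 1, 2, 4, 6 and 8. Btg2 had 8.96 at control week 1, 8.53 at control week 8, and 8.73, 8.87, 9.23, 8.29 and 8.10 at UV weeks 1, 2, 4, 6 and 8. Fos had 12.60 at control week 1, 11.58 at control week 8, and 11.92, 11.59, 12.89, 11.41 and 9.67 at UV weeks 1, 2, 4, 6 and 8, so that its UV week 8 mean was the lowest of the series. Defb3 had 7.17 at control week 1, 7.23 at control week 8, and 7.41, 6.03, 5.61, 8.22 and 8.81 at UV weeks 1, 2, 4, 6 and 8, where UV week 4 was the lowest. Klk13 had 9.06 at control week 1, 8.56 at control week 8, and 9.45, 8.97, 9.66, 11.22 and 10.9956 at UV weeks 1, 2, 4, 6 and 8. Tmprss11a had 3.74 at control week 1, 3.67 at control week 8, and 3.63, 4.61, 4.42, 7.41 and 6.83 at UV weeks 1, 2, 4, 6 and 8. The test of the difference between this step and the step before it, and between this step and the one after it, gave 0 probe sets past the adjusted test in each direction (0%, smallest adjusted p = 0.279 and 0.177), so no gene was shown to change by a different amount in this step than in its neighbours.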

How the data were processed

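The values deposited by the authors are linear intensities of probe sets, already corrected for background and normalized between arrays. The methods name Affymetrix Expression Console 1.4 with a Microarray Suite 5 preprocessor, and the submitters' processing notes name RMA, so which of the algorithms made the table is not settled. Probe sets were named from the platform annotation. Intensities of at least 1 were log2 transformed. Of 45101 probe sets, 64 controls were left out, and 40540 reached the 20th percentile of their array in at least 1 array (32317 with 1 gene symbol, 853 with several, 7370 with none). In R 4.3.3, limma 3.58.1 was run over the 21 arrays with 7 group means (18.4 total degrees of freedom), with Benjamini-Hochberg adjustment across the probe sets tested. The labels do not say that arrays of a group came from separate mice, while the methods allot 3 mice to a group, so p-values measure the spread between these arrays, whose number limits the precision. For each of 17403 genes the probe set with the highest mean stood for the gene. Called means 2-fold and an adjusted p of at most 0.05.

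The genes named are up to 15 in each direction with the largest change among called genes whose arrays do not overlap, filled to 10 with the smallest unadjusted p among genes at least 2-fold changed, and up to 4 of each of 48 lists with the smallest p. Btg2, Ccn1, Ciita, Epcam, Fosb, Fosl1, Gata3, H2-Aa, H2-Eb1, Itgax, Klf2, Krt25, Krtap22-2, Krtap8-1, Lce3b, Lce3c, Per2, Reg3g, Tchh, Zfp36, Evpl, Ppl and Tgm1 were chosen after their values were seen. Members and lists were chosen with earlier results of these data known. The calling procedure was also run on simulated data, whose outcome is not given here and does not bear on the calls above. Alternatives were another filter, quantile normalization, other sets of arrays, the 3'/5' ratios as covariates, array weights, other call rules, other probe sets and leaving out each array. Figures were drawn with matplotlib 3.10.9.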

Additional observations from a re-analysis of the deposited data

How the results depend on the processing

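No paired analysis was possible because the array numbers are not shared between groups. The counts of called probe sets, 0 higher and 1 lower in UV week 6 against UV week 4, were unchanged with no intensity filter, with quantile normalization on top, with a filter at the array median, with an intensity trend and robust prior, and with 1 probe set per gene. A fit to the 6 arrays alone gave 1 higher and 0 lower, and a fit to the 15 UV arrays 0 and 0. The beta-actin ratio as a covariate gave 2 higher and 11 lower, the Gapdh ratio 0 and 2, and array weights 17 and 29. The adjusted p without the fold minimum gave 0 and 2, 2-fold with no test 123 and 209, and 2-fold with an unadjusted p of at most 0.05 112 and 109. Leaving out each array gave 0 to 1 higher and 0 to 3 lower. A fit without 8 arrays of beta-actin ratio over 4, chosen after seeing the data, left 1 array of UV week 6, whose spread was taken from the other groups, and gave 3 higher and 0 lower. The cause of these differences was not tested. The 79 genes given with their values on each array kept their direction in all 1264 refits. For many of the refits this could not have been otherwise. Other filters, the trend and robust prior, and fits to fewer groups leave the log2 fold change as it is. Where arrays did not overlap, leaving out 1 array could not turn the sign either. In 28 of the 1264 refits a gene passed the adjusted test that it did not pass in the reported fit. In 16 of them Cd207 or Btg2 no longer passed. Of 49 other probe sets of these genes, 11 had the opposite sign, with log2 fold changes of 0.19 for Neat1, -0.042 and -0.64 for Malat1, 0.18 and 0.29 for Tra2a, 0.12 for Ptgfr, 0.0449 for Prkd2, 0.0859 for Zkscan5, 0.0797 for Slc1a5, and 0.31 and 0.20 for Per2. Of 833 list medians under other settings, 754 stayed within the spread between replicates. The 3 arrays per group and the RNA quality of arrays 441 and 445 limit what this step can show.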
